A study of Homo sapiens with 24 samples.

Results

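The 8 genes described here encode the end of the Hippo pathway: the coactivators YAP1 and TAZ (gene WWTR1), the transcription factors TEAD1, TEAD2, TEAD3 and TEAD4, and the vestigial-like cofactors VGLL3 and VGLL4. They were taken by symbol from the gene tables, which list 58266 symbols on 60350 entries, and each stood on 1 entry. Messenger RNA was measured in 24 libraries of HEK293A, an adherent cell line of embryonic kidney origin, in 8 groups of 3. All groups were grown in DMEM with 10% FBS and seeded on hydrogels coated with fibronectin, with no other treatment. The groups cross 2 stiffnesses, 1 kPa (soft) and 40 kPa (stiff), with 4 genotypes. The lines are WT, YAP/TAZ-dKO (labelled knockout for both coactivators), LATS1/2-dKO (for both LATS kinases) and RAP2A/B/C-tKO (for 3 RAP2 GTPases). How the lines were edited, and whether a genotype is 1 clone or several, was not given in the sources used here. A difference between lines therefore cannot be told apart from a difference between clones. The design text calls the replicates biological. Whether they were separate cultures is not given, and p-values measure the spread between these libraries.

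When the Hippo pathway is active, MST and LATS kinases phosphorylate YAP and TAZ, which are then held in the cytoplasm by 14-3-3 proteins or degraded. When it is inactive, as it often is in spread cells on a stiff matrix, YAP and TAZ enter the nucleus. Having no DNA-binding domain, they act by binding TEAD factors at enhancers and promoters. The vestigial-like proteins bind the same face of TEAD: VGLL4 is known as a competitor of YAP, and VGLL3 as a TEAD partner in other cell types. The control is mainly on the protein, so RNA levels do not report YAP or TAZ activity. The series asks how RAP2 links matrix stiffness to this pathway.

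The 4 TEAD genes are paralogs that moved in different directions below, and their sequences are shown because a fragment has to be assigned to 1 of them. The stretch is the same aligned 90 coding bases in each, in exon 12 of 13 of the longest coding transcript of GENCODE release 29 (GRCh38), read 5′ to 3′ on the coding strand, and capitals mark bases that differ from TEAD1. It covers chr11:12930210-12930299 on the plus strand for TEAD1, chr19:49342465-49342554 on the minus strand for TEAD2, chr6:35475363-35475452 on the minus strand for TEAD3 and chr12:3040143-3040232 on the plus strand for TEAD4.
TEAD1: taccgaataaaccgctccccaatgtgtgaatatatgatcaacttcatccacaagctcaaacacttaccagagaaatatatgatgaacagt
TEAD2: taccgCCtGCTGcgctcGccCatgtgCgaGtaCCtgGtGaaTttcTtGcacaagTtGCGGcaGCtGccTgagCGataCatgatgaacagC
TEAD3: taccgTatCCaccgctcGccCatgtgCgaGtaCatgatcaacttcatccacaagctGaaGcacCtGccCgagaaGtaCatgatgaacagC
TEAD4: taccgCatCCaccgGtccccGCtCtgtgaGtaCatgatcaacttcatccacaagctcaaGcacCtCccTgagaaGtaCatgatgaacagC

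In this stretch, placed around the longest run that TEAD1 and TEAD4 share, TEAD2 differed from TEAD1 at 30 bases and TEAD3 and TEAD4 at 16 each. Over the whole aligned coding sequence, pairs of TEAD genes were 67.6% to 73.9% identical, and the longest run shared by a pair was 56 bases, between TEAD3 and TEAD4. Of all 50-base words in the transcripts of TEAD1, 0 occurred in another gene. For TEAD3 and TEAD4 it was 7 words, those that both share. TEAD2 shared 7.0% of its words with CD37, which lies beside it. YAP1 shared 8.74% of its words, among others with the pseudogene YAP1P1, and WWTR1 8.98%, among others with the antisense gene WWTR1-AS1. VGLL4 shared 22.49%, among others with ATG7, while VGLL3 shared 0. The strand setting of the authors' counting was not among what the labels state. The levels of VGLL4, YAP1, WWTR1 and TEAD2 are therefore uncertain to that extent.

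Values are FPKM, fragment counts normalised to transcript length and to the number of mapped fragments, so that levels of different genes can be compared per length. Depth, estimated from the width of the deposited confidence intervals, was about 19200000 to 42000000 fragments per library. By the same intervals TEAD2 rested on 49 to 661 fragments per library and TEAD3 on 161 to 459. The precision of TEAD2 thus differed between libraries. Of the 24 libraries, RAP2A/B/C-tKO 40kPa replicate 3 and LATS1/2-dKO 40kPa replicate 1 stood apart. Their difference from the other replicates followed gene GC content (rank correlation -0.597 and -0.567 across genes, which are not independent), and the second was also the shallowest. TEAD4, TEAD3 and TEAD2 were at the 86.2, 84.5 and 80.7 percentile of GC content among the genes tested, and VGLL4 at the 61.6 percentile. TEAD4, TEAD3 and VGLL4 were lowest of their group in both skewed libraries. TEAD2 was lowest in that of LATS1/2-dKO (14.6 FPKM) but highest in that of RAP2A/B/C-tKO (17.7 FPKM). Of 8 markers known from HEK293 cells, KRT8, KRT18, VIM and CDH2 were at 25.2 FPKM or more in every library and NEFL ran from 10.7 to 554.3. LHX1 was at 0.251 to 7.02, and PAX2 and NEFM reached 1.30 and 0.0939 at most. The immune, endothelial, adipocyte and muscle markers measured reached 1.48 FPKM at most except CD68, at 2.07 to 6.62 FPKM. Of 5 fibroblast markers DCN was at 0, and COL1A1 and LUM reached 7.87 and 9.02.

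Tests were made with limma on log2(FPKM + 1) over 15828 genes, with p-values adjusted by the Benjamini-Hochberg method, and an adjusted p below 0.05 counts as a call. A log2 change on this scale understates the change of genes with a low FPKM. All 8 genes passed the filter on low values, 7 with an FPKM of at least 1 in all 24 libraries and VGLL3 in 10. Unless another error is named, ± is the SD over n = 3 libraries and the value after a log2 change is its standard error (SE). In bulk RNA, fewer cells with a transcript and less of it per cell cannot be told apart.

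YAP1 and WWTR1 were high in WT, and the main pattern of their RNA was a fall in the line labelled knockout for them. YAP1 (ENSG00000137693.13, hg19 chromosome 11, 101981192 to 102104154) stood in WT at 29.99, 32.1 and 30.7 FPKM on 1 kPa and at 30.9, 31.99 and 31.9 on 40 kPa. In YAP/TAZ-dKO it stood at 6.16, 6.17 and 5.86 on 1 kPa and at 6.78, 6.32 and 5.49 on 40 kPa, far from every other library. It fell by 2.18 on the log2 scale (SE 0.053, adjusted p = 1.37e-16 by limma) to 19.6% of the WT mean at both stiffnesses. The RNA of an edited gene can persist in part, and these values give no protein level.

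WWTR1 (ENSG00000018408.14, chromosome 3, 149235022 to 149454501) stood in WT at 23.8, 29.3 and 28.7 FPKM on 1 kPa and at 26.4, 26.9 and 25.5 on 40 kPa. In YAP/TAZ-dKO the libraries were at 10.3, 10.97 and 8.80 on 1 kPa and at 10.1, 11.5 and 10.6 on 40 kPa, again below all others. WWTR1 fell by 1.29 on the log2 scale (SE 0.075, adjusted p = 7.03e-11 by limma), to 36.8% and 40.9% of the WT mean on 1 and 40 kPa. WWTR1 thus made up 62.2% ± 2.02 of the summed FPKM of both coactivators in that line on 1 kPa and 63.4% ± 3.23 on 40 kPa, against 46.8% ± 2.21 and 45.4% ± 0.873 in WT.

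In the fit described above neither coactivator was called in the other lines. YAP1 differed from WT by 0.04 in RAP2A/B/C-tKO (95% interval -0.07 to 0.15) and by 0.03 in LATS1/2-dKO (-0.08 to 0.14), on the log2 scale. WWTR1 differed by 0.07 in RAP2A/B/C-tKO (-0.09 to 0.22). In LATS1/2-dKO it was at 26.2, 24.8 and 24.5 FPKM on 1 kPa and at 20.6, 23.98 and 21.1 on 40 kPa, a difference of -0.18 (-0.34 to -0.02, adjusted p = 0.0697 by limma). The stiff LATS1/2-dKO libraries did not overlap with the stiff WT ones. After a correction for GC content WWTR1 was called lower in LATS1/2-dKO (-0.22, adjusted p = 0.0185 by limma), also on 40 kPa alone (-0.33, adjusted p = 0.0198). Without both GC-skewed libraries it was not called (-0.16, adjusted p = 0.103 by limma). Between the stiffnesses YAP1 and WWTR1 were not called in any genotype, and the 95% intervals of the 4 YAP1 differences lay between -0.14 and 0.22.

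**Figure D1:**
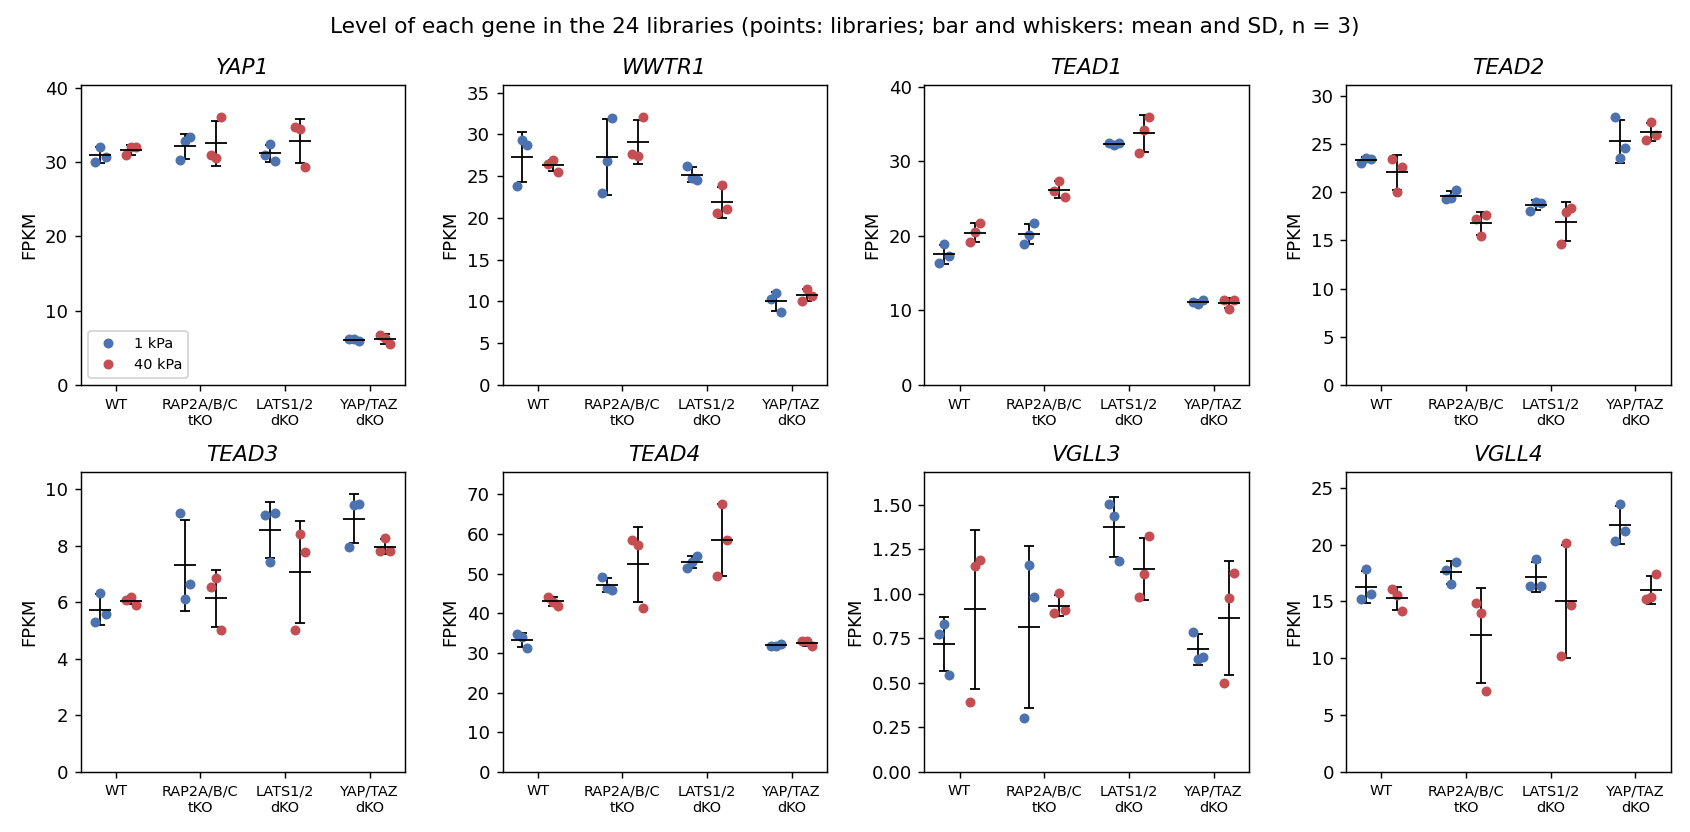
FPKM of each gene in the 24 libraries, by genotype and stiffness (blue 1 kPa, red 40 kPa); points are libraries, the bar and whiskers the mean and SD of 3. YAP1 and WWTR1 are low in YAP/TAZ-dKO alone, TEAD1 is highest in LATS1/2-dKO, TEAD4 is high there and in RAP2A/B/C-tKO, with overlap, and TEAD2 is lowest in RAP2A/B/C-tKO and LATS1/2-dKO on 40 kPa.

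In WT on 1 kPa TEAD4 (ENSG00000197905.8, chromosome 12, 3068496 to 3149839) was at 33.3 ± 1.82 FPKM, TEAD2 (ENSG00000074219.13, chromosome 19, 49843852 to 49865714) at 23.3 ± 0.251, TEAD1 (ENSG00000187079.14, chromosome 11, 12696138 to 12966030) at 17.5 ± 1.30 and TEAD3 (ENSG00000007866.18, chromosome 6, 35441374 to 35464853) at 5.75 ± 0.536. The libraries of these neighbours in the order did not overlap. TEAD4 is known for its role in the trophectoderm of the early embryo, TEAD1 and TEAD3 as widely expressed members, and TEAD2 as a member prominent in early development.

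With stiffness, TEAD1 rose in RAP2A/B/C-tKO. TEAD4 had its largest difference in WT, where it was called only without both GC-skewed libraries or with a correction for GC content. With all libraries and no such correction, 0 of the 8 genes were called in WT (0.986% of all genes tested were). The counts were 1 in RAP2A/B/C-tKO (3.87%), 0 in LATS1/2-dKO (0.708%) and 0 in YAP/TAZ-dKO (0.347%), by limma. At an unadjusted p below 0.05 there were 2, 3, 0 and 0. The share of all genes at that threshold was not computed, so the shares above are no measure for these counts. TEAD1 stood in RAP2A/B/C-tKO at 18.9, 20.1 and 21.7 FPKM on 1 kPa and at 26.04, 27.4 and 25.2 on 40 kPa. All stiff libraries lay above the soft ones, a rise of 0.36 on the log2 scale (SE 0.066, adjusted p = 0.00505 by limma). Fitted on these 6 libraries alone, with their own spread, the call was lost (adjusted p = 0.343).

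TEAD1 in WT was at 16.3, 18.9 and 17.3 FPKM on 1 kPa and at 19.1, 20.5 and 21.7 on 40 kPa. The libraries did not overlap and the difference was 0.21 (SE 0.066, adjusted p = 0.152 by limma). In LATS1/2-dKO it was at 32.4, 32.2 and 32.5 on soft and at 31.1, 34.2 and 35.9 on stiff gels, and these overlapped (0.06, 95% interval -0.08 to 0.19). In YAP/TAZ-dKO it was at 11.1, 10.9 and 11.3 on soft and at 11.4, 10.2 and 11.4 on stiff gels (-0.02, -0.16 to 0.12). The response in a knockout line was not called different from that in WT for TEAD1, with the lowest adjusted p at 0.459 in YAP/TAZ-dKO (difference -0.23, 95% interval -0.42 to -0.03).

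TEAD4 in WT was at 34.7, 34.0 and 31.3 FPKM on 1 kPa and at 44.2, 42.9 and 41.9 on 40 kPa. The stiff libraries lay clear of the soft ones, at 1.29 times their mean, and the difference was 0.36 (SE 0.10, adjusted p = 0.119 by limma). Without both GC-skewed libraries, none of them WT, the difference was again 0.36 and was called (adjusted p = 0.000504). All groups share 1 estimate of the spread, and the share of all genes called in WT went from 0.986% to 6.42%. With all libraries and a correction for GC content the difference was 0.41 and was also called (adjusted p = 2.35e-06 by limma). In RAP2A/B/C-tKO TEAD4 was at 49.1, 46.4 and 45.8 on soft and at 58.4, 57.2 and 41.4 on stiff gels, the lowest value being that of the GC-skewed library. The difference was 0.13 with it and 0.29 without both such libraries (adjusted p = 0.465 and 0.00497). In LATS1/2-dKO it was at 51.5, 53.0 and 54.6 on soft and at 49.3, 67.6 and 58.5 on stiff gels, and again the GC-skewed library was lowest (0.13 with it and 0.24 without, adjusted p = 0.675 and 0.0287). The correction for GC content gave 0.38 in RAP2A/B/C-tKO and 0.22 in LATS1/2-dKO (adjusted p = 2.88e-06 and 0.0119 by limma).

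In YAP/TAZ-dKO TEAD4 was at 31.8, 31.7 and 32.3 FPKM on soft and at 32.9, 32.9 and 31.7 on stiff gels, which overlapped (0.02, 95% interval -0.20 to 0.24). Its response there was 0.34 below that in WT (SE 0.15, 95% interval -0.65 to -0.03, adjusted p = 0.508 by limma). That difference of responses was called without both GC-skewed libraries (adjusted p = 0.0154), as were 2.62% of all genes. Correction for GC content also made it a call (-0.30, adjusted p = 0.00409 by limma). With all libraries and no such correction, 0 of the 8 genes were called for a response unlike that in WT in any knockout line. Of all genes, 0.0505% were called in RAP2A/B/C-tKO, 0.0632% in LATS1/2-dKO and 0.392% in YAP/TAZ-dKO. At an unadjusted p below 0.05 there were 0, 0 and 2, the latter TEAD1 and TEAD4, again with no share of all genes computed at that threshold.

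Without both GC-skewed libraries, 2 of the 8 genes were called for stiffness in WT (TEAD1 and TEAD4; 6.42% of all genes), 3 in RAP2A/B/C-tKO (TEAD1, TEAD4 and, lower, TEAD2; 5.05%), 1 in LATS1/2-dKO (TEAD4; 3.04%) and 1 in YAP/TAZ-dKO (VGLL4, lower; 2.46%). TEAD2, the member that tended the other way, differed by -0.22 in RAP2A/B/C-tKO with all libraries (adjusted p = 0.119) and by -0.25 without both (adjusted p = 0.0410), but by -0.02 after a correction for GC content (adjusted p = 0.931). TEAD3 was not called for stiffness in any genotype under either set of libraries, with differences of 0.07, -0.21, -0.27 and -0.15 in WT, RAP2A/B/C-tKO, then LATS1/2-dKO and YAP/TAZ-dKO with all libraries. Without both GC-skewed libraries those in RAP2A/B/C-tKO and LATS1/2-dKO were -0.09 and -0.07.

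**Figure D2:**
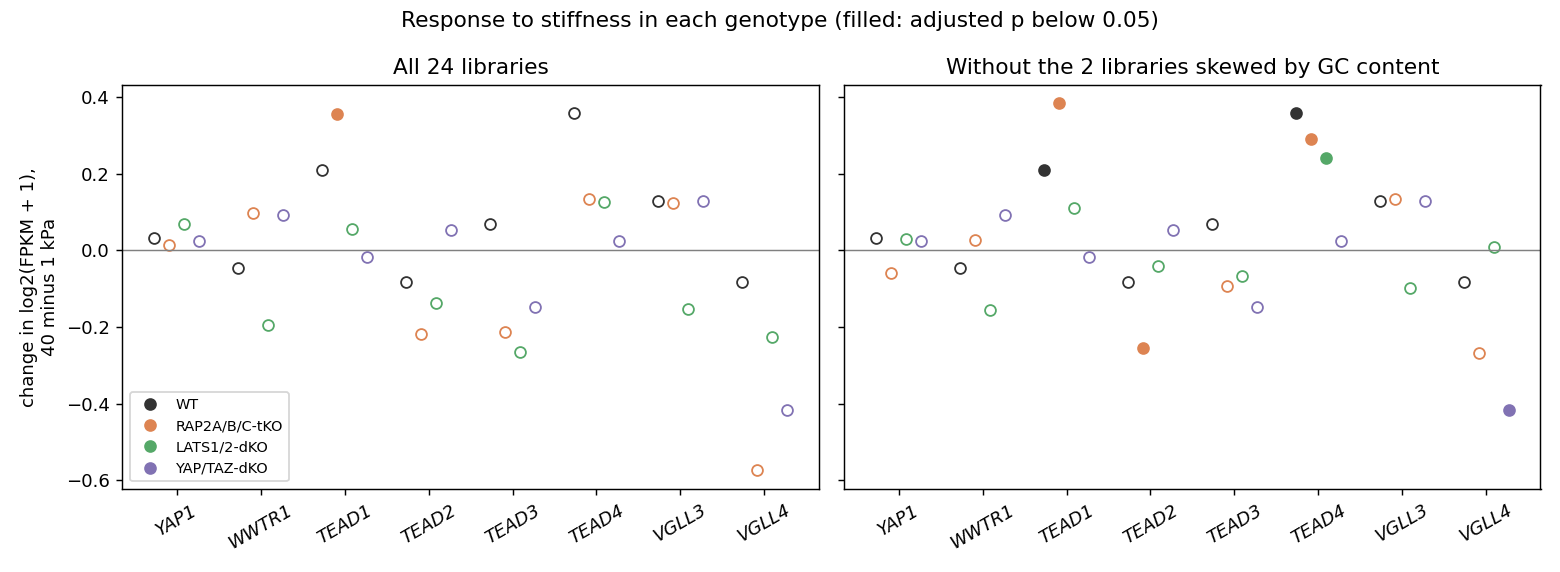
Difference in log2(FPKM + 1) between 40 and 1 kPa for each gene in the 4 genotypes, with all 24 libraries (left) and without the 2 libraries skewed by GC content (right); filled points have an adjusted p below 0.05. With all libraries TEAD1 in RAP2A/B/C-tKO (0.36) is filled, and on the right TEAD4 is filled in WT, RAP2A/B/C-tKO and LATS1/2-dKO (0.36, 0.29 and 0.24).

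Between genotypes, TEAD1 and TEAD4 rose and TEAD2 fell in both RAP2A/B/C-tKO and LATS1/2-dKO as a mean over the stiffnesses. All 3 went the opposite way in YAP/TAZ-dKO, where TEAD2 and TEAD4 were not called on 1 kPa alone. Over the mean of both stiffnesses, 3 of the 8 genes were called in RAP2A/B/C-tKO against WT (16.0% of all genes tested were), 4 in LATS1/2-dKO (33.9%) and 6 in YAP/TAZ-dKO (50.6%). The latter count holds the targeted YAP1 and WWTR1. Without both GC-skewed libraries the counts were 3 (27.8%), 4 (42.7%) and 7 (61.6%), VGLL4 being added in YAP/TAZ-dKO. On 1 kPa alone 1, 4 and 4 of the 8 were called in the 3 lines (6.80%, 21.8% and 37.9% of all genes), and on 40 kPa alone 2, 3 and 5 (9.05%, 22.3% and 37.7%). The 3 comparisons share the WT libraries, so that their signs are not independent of each other.

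In RAP2A/B/C-tKO, TEAD4 rose by 0.37 (SE 0.074, adjusted p = 0.00159 by limma), to 1.41 times the WT mean on 1 kPa and 1.22 times on 40 kPa. On 40 kPa alone it was not called (0.26, adjusted p = 0.131), but leaving out both GC-skewed libraries made it a call (0.42, adjusted p = 6.86e-05). All 3 soft libraries (45.8 to 49.1 FPKM) lay above even the stiff WT ones. TEAD1 rose by 0.27 (SE 0.047, adjusted p = 0.000472), to 1.16 and 1.28 times WT, and was not called on 1 kPa alone (0.20, adjusted p = 0.0851). TEAD2 fell by 0.31 (SE 0.055, adjusted p = 0.000751 by limma). On 1 kPa alone it was not called (-0.24, adjusted p = 0.0804, and 0.0126 without both GC-skewed libraries). On 40 kPa alone it was called (-0.37, adjusted p = 0.005265). After correction for GC content the mean over both stiffnesses stayed called (-0.27, adjusted p = 0.00931), but neither stiffness alone did (adjusted p = 0.0785 and 0.103). The TEAD2 libraries were at 19.3, 19.4 and 20.2 FPKM on 1 kPa and at 17.2, 15.4 and 17.7 on 40 kPa, without overlap at the same stiffness with WT at 23.1, 23.5 and 23.5 and at 23.4, 20.04 and 22.6. TEAD3 differed by 0.15 and was not called (adjusted p = 0.401).

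LATS1/2-dKO had the highest TEAD1 of all lines, and the highest mean TEAD4 at each stiffness, where its libraries overlapped with those of stiff RAP2A/B/C-tKO (41.4 to 58.4 FPKM). TEAD1 rose by 0.77 (SE 0.047, adjusted p = 2.80e-10 by limma), to 32.4 ± 0.120 FPKM on 1 kPa and 33.7 ± 2.47 on 40 kPa, 1.85 and 1.65 times WT. Its lowest library there, at 31.1 FPKM, lay above the highest of any other line, at 27.4. TEAD4 rose by 0.54 (SE 0.074, adjusted p = 1.36e-05), to 53.0 ± 1.51 and 58.5 ± 9.15 FPKM. TEAD2 fell by 0.34 (SE 0.055, adjusted p = 1.00e-04), to 18.6 ± 0.534 and 16.9 ± 2.03 FPKM. It was also called on 1 and 40 kPa alone (adjusted p = 0.00752 and 0.00221 by limma). After correction for GC content the mean over both stiffnesses stayed called (-0.26, adjusted p = 0.00709), but neither stiffness alone did (adjusted p = 0.0596 and 0.0707).

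TEAD3 in LATS1/2-dKO was at 9.11, 7.41 and 9.17 FPKM on 1 kPa and at 5.02, 8.41 and 7.80 on 40 kPa, the lowest being the GC-skewed library. WT was at 5.31, 6.35 and 5.58 and at 6.08, 6.19 and 5.92, so the stiff groups overlapped through that 1 library. TEAD3 rose by 0.33 (SE 0.11, adjusted p = 0.0212 by limma). That call was lost without LATS1/2-dKO 1kPa replicate 3, without LATS1/2-dKO 40kPa replicate 2 or without 40kPa replicate 3 (adjusted p between 0.0503 and 0.0597), and without both GC-skewed libraries the rise was 0.43 (adjusted p = 0.000393).

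In YAP/TAZ-dKO, TEAD1 was the TEAD gene with the largest change: it fell by 0.72 (SE 0.047, adjusted p = 3.14e-10 by limma), to 63.5% of WT on 1 kPa and 53.8% on 40 kPa. TEAD4 fell by 0.23 (SE 0.074, adjusted p = 0.0159). On stiff gels it was at 75.6% of WT (-0.39, adjusted p = 0.0058), and on soft gels its libraries overlapped with those of WT (-0.06, adjusted p = 0.706, and -0.13 with adjusted p = 0.00503 after correction for GC content). The test of the difference between both is the one given above. TEAD3 rose by 0.45 (SE 0.11, adjusted p = 0.0016), to 7.95, 9.46 and 9.49 FPKM on 1 kPa and 7.82, 8.28 and 7.82 on 40 kPa, all above all 6 WT libraries. TEAD2 rose by 0.17 (SE 0.055, adjusted p = 0.0132), to 25.3 ± 2.24 and 26.2 ± 0.944 FPKM, and this call was lost after correction for GC content (0.14, adjusted p = 0.103). On 1 kPa alone TEAD2 was not called (0.11, adjusted p = 0.310 by limma), and on 40 kPa alone it was (0.24, adjusted p = 0.01995). TEAD3 was thus called higher in both LATS1/2-dKO and YAP/TAZ-dKO as a mean over the stiffnesses, unlike TEAD1, TEAD2 and TEAD4, whose signs differed between those lines. On 40 kPa alone TEAD3 was called in neither line (0.17 and 0.345, adjusted p = 0.485 and 0.0822 by limma). Without both GC-skewed libraries it was called there in both (adjusted p = 0.0328 and 0.0145).

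**Figure D3:**
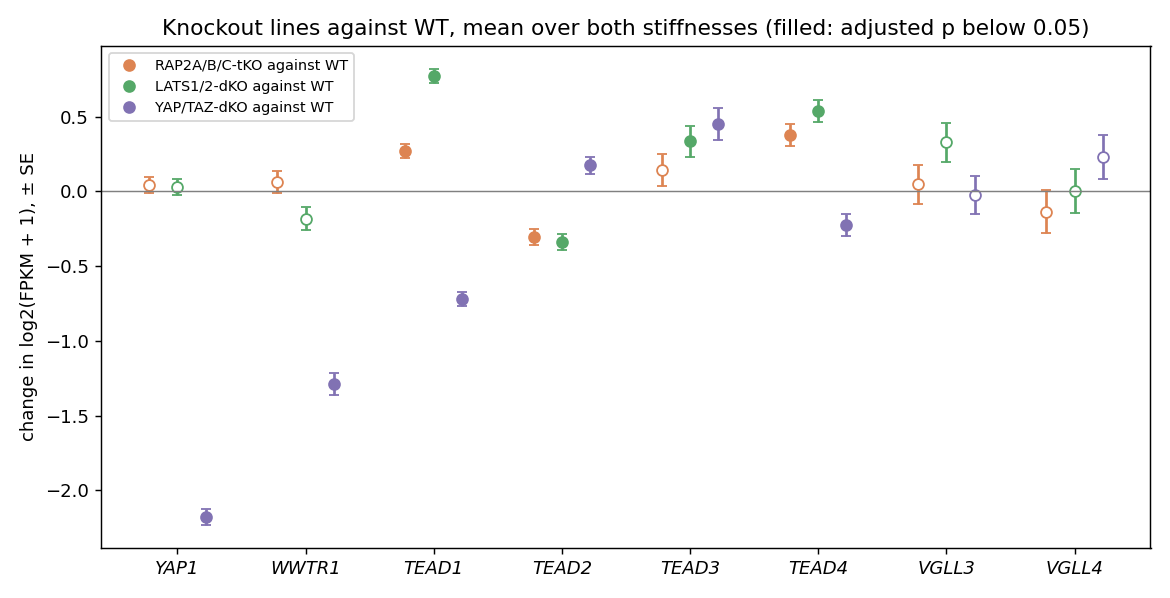
Change in log2(FPKM + 1) of each gene in the 3 knockout lines against WT, as the mean over both stiffnesses with its SE; filled points have an adjusted p below 0.05. TEAD1 lies at 0.27, 0.77 and -0.72, TEAD4 at 0.37, 0.54 and -0.23, and TEAD2 at -0.31, -0.34 and 0.17 in RAP2A/B/C-tKO, then LATS1/2-dKO and YAP/TAZ-dKO.

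Summed over TEAD1 to TEAD4, the groups ran from 77.3 ± 1.59 FPKM in YAP/TAZ-dKO on 1 kPa to 116.2 ± 14.6 in LATS1/2-dKO on 40 kPa. WT was at 79.9 ± 2.63 on 1 kPa and 91.5 ± 1.70 on 40 kPa, with no overlap, and soft WT overlapped with YAP/TAZ-dKO. RAP2A/B/C-tKO was at 94.3 ± 2.18 and 101.5 ± 10.6, and its soft libraries overlapped with stiff WT. Without the GC-skewed library, the stiff mean was 107.6 in RAP2A/B/C-tKO and 124.3 in LATS1/2-dKO.

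The makeup of that sum also differed between groups. TEAD1 and TEAD4 together made up 55.7% ± 0.985 and 56.0% ± 1.15 in YAP/TAZ-dKO on 1 and 40 kPa. In WT they made up 63.6% ± 0.880 and 69.3% ± 1.29, in RAP2A/B/C-tKO 71.4% ± 0.869 and 77.3% ± 2.37, and in LATS1/2-dKO 75.8% ± 0.450 and 79.4% ± 1.02. The soft and stiff libraries did not overlap in WT, LATS1/2-dKO and RAP2A/B/C-tKO and did in YAP/TAZ-dKO. The share of TEAD2 ran the other way, from 33.7% ± 0.925 in YAP/TAZ-dKO on 40 kPa to 14.6% ± 0.611 in LATS1/2-dKO on 40 kPa. These shares were not tested across genes, and members with high and low GC content enter them together.

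**Figure D4:**
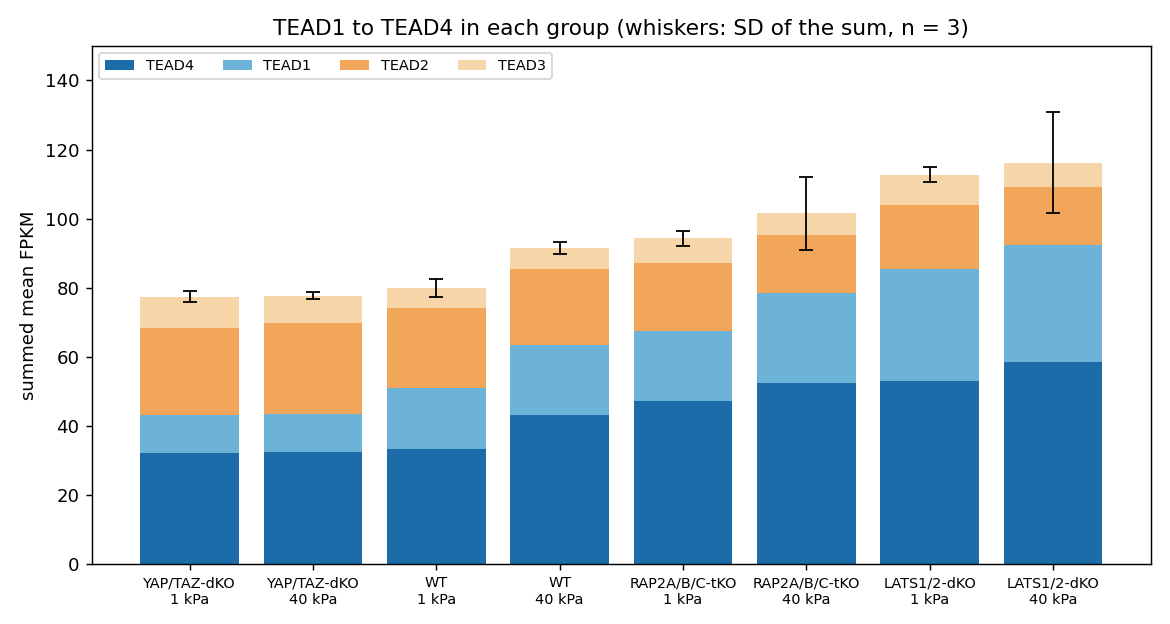
Mean FPKM of TEAD1 to TEAD4, stacked, in the 8 groups ordered by genotype, with the SD of the sum over 3 libraries. The sum rises from 77.3 in YAP/TAZ-dKO on 1 kPa to 116.2 in LATS1/2-dKO on 40 kPa, by TEAD4 and TEAD1 (blue), while TEAD2 (orange) is thinnest in RAP2A/B/C-tKO on 40 kPa and LATS1/2-dKO.

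The cofactors gave no call in any of the 10 comparisons with all libraries. VGLL4 (ENSG00000144560.13, chromosome 3, 11597544 to 11812824) was at 15.2, 17.8 and 15.7 FPKM in soft and at 16.1, 15.6 and 14.1 in stiff WT. In YAP/TAZ-dKO it was at 20.4, 23.6 and 21.2 on 1 kPa, above the soft libraries of all other lines, and at 15.2, 15.4 and 17.4 on 40 kPa. That stiff-minus-soft difference was -0.42 (SE 0.20, adjusted p = 0.666 by limma), and -0.42 with adjusted p = 0.0331 without both GC-skewed libraries. In RAP2A/B/C-tKO VGLL4 was at 17.7, 16.5 and 18.5 on soft and at 14.8, 14.0 and 7.15 on stiff gels, without overlap (-0.57, adjusted p = 0.118). The value of 7.15 is that of the GC-skewed library, and without both such libraries the difference was -0.27 (adjusted p = 0.181). In LATS1/2-dKO the stiff libraries were spread from 10.2 to 20.1 FPKM, the lowest again being the GC-skewed one.

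Against WT, VGLL4 differed by 0.23 in YAP/TAZ-dKO (adjusted p = 0.198 by limma). It was called there without both GC-skewed libraries, at the same 0.23 (adjusted p = 0.0081), and with only the WT and YAP/TAZ-dKO libraries fitted (adjusted p = 0.00493).

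VGLL3 (ENSG00000206538.7, chromosome 3, 86987119 to 87040269) was near the limit of detection at 0.300 to 1.51 FPKM, which the deposited intervals put at 8 to 28 fragments per library. Its highest group was LATS1/2-dKO on 1 kPa, at 1.51, 1.44 and 1.18 FPKM, above the soft WT libraries at 0.777, 0.833 and 0.545. Over both stiffnesses the difference was 0.33 (SE 0.13, 95% interval 0.06 to 0.60, adjusted p = 0.0569 by limma), and it was not called. It was called without WT 40kPa replicate 2 and without WT 40kPa replicate 3 (adjusted p = 0.0382, the lowest of its alternatives). The related VGLL1 and VGLL2 were below the level tested, at 0 to 0.0878 and 0.0788 to 0.399 FPKM.

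The chromosome around a gene can differ between lines, so each change was set beside those of the tested genes within 5 Mb on each side (hg19). In YAP/TAZ-dKO the 26 neighbours of WWTR1 had a median log2 change of -0.66, and 92.3% of them were lower than in WT, against -1.29 for WWTR1 itself. The 13 neighbours of YAP1 had a median of -0.27 and 84.6% were lower, against -2.18. The 87 neighbours of TEAD4 had a median of -0.16, near the -0.23 of TEAD4. On 40 kPa alone that median was -0.13 and 25.3% of the neighbours lay below the -0.39 of TEAD4. In LATS1/2-dKO the same neighbours had a median of -0.20 while TEAD4 was at 0.54. The 244 neighbours of TEAD2 had medians of -0.14 in RAP2A/B/C-tKO and -0.13 in LATS1/2-dKO, with 80.3% and 72.5% lower, where TEAD2 was at -0.31 and -0.34. On 1 and 40 kPa alone those medians were -0.06 and -0.21 in RAP2A/B/C-tKO and -0.11 and -0.14 in LATS1/2-dKO. The stiff group of each of these lines holds a GC-skewed library, whose part in the medians was not tested. The 69 neighbours of TEAD1 were at 0.02, 0.09 and -0.04 in RAP2A/B/C-tKO, then LATS1/2-dKO and YAP/TAZ-dKO, and the 157 of TEAD3 at 0.11 in YAP/TAZ-dKO. Within 2 Mb on each side, the 23 neighbours of TEAD1 had a median of -0.22 in YAP/TAZ-dKO, with 60.9% lower, and the 32 of TEAD4 a median of -0.10 in LATS1/2-dKO. The medians of all genes tested lay between -0.013 and 0.001 over both stiffnesses, and between -0.014 and 0.01 on 1 or 40 kPa alone. The part of these regions in the changes of WWTR1, YAP1, TEAD1, TEAD2 and TEAD4 was not tested.

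**Figure D5:**
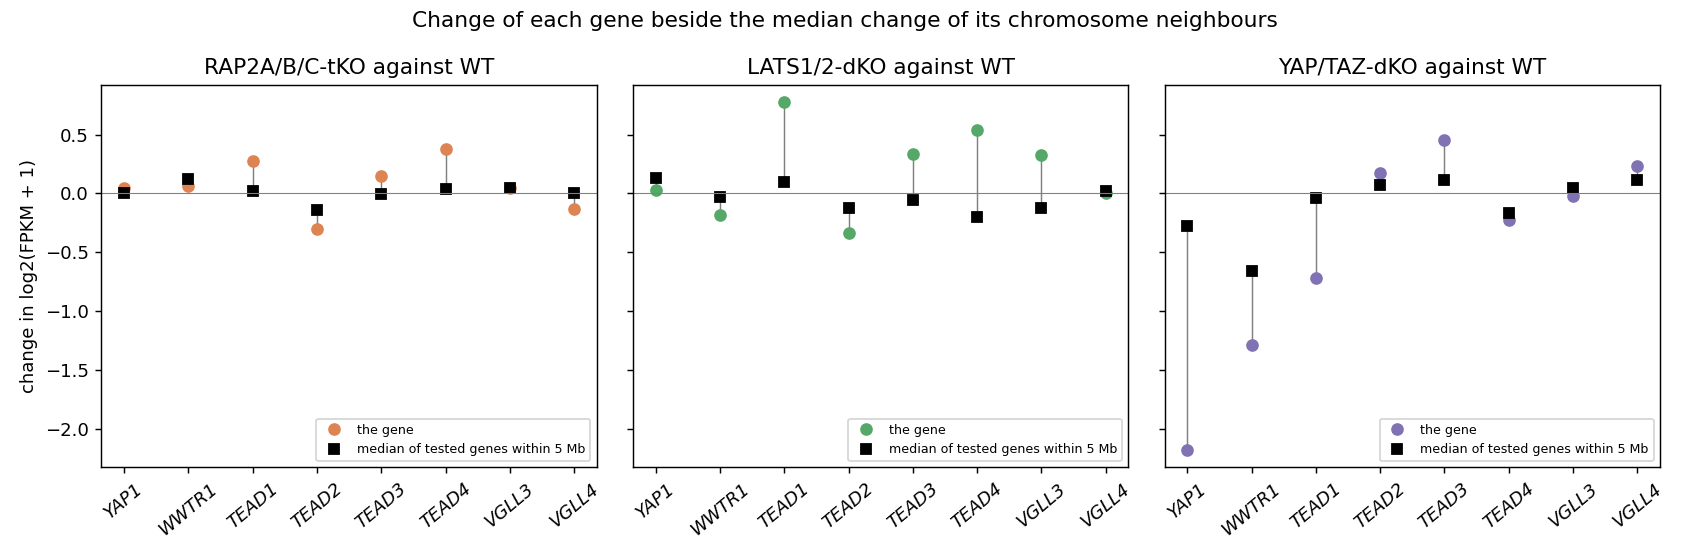
Log2 change against WT of each gene (circle) and the median of the tested genes within 5 Mb on each side (square) in the 3 knockout lines. The squares lie within 0.20 of 0 except at WWTR1 (-0.66) and YAP1 (-0.27) in YAP/TAZ-dKO.

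Other genes of the pathway were read from lists. Of all genes tested, 7.40% rose and 8.57% fell in RAP2A/B/C-tKO, 16.0% and 17.8% in LATS1/2-dKO, and 23.6% and 27.0% in YAP/TAZ-dKO. With stiffness, 0.322% rose and 0.663% fell in WT, 0.986% and 2.88% in RAP2A/B/C-tKO, 0.0885% and 0.619% in LATS1/2-dKO, and 0.120% and 0.227% in YAP/TAZ-dKO. Of 24 kinases and adaptors upstream of YAP and TAZ, 4 rose and 0 fell in RAP2A/B/C-tKO, 6 rose and 4 fell in LATS1/2-dKO, and 5 rose and 12 fell in YAP/TAZ-dKO. With both GC-skewed libraries left out, 5 rose and 1 fell, 10 rose and 4 fell, and 5 rose and 12 fell. In that fit 27.8%, 42.7% and 61.6% of all genes were called in either direction. The list's median log2 change with all libraries was 0.03, 0.17 and -0.11, and that of all genes 0.00, -0.01 and 0.00. LATS1 fell by 1.08 in LATS1/2-dKO, whose libraries (4.97 to 6.001 FPKM) all lay below the others. LATS2, the other targeted kinase, was at 2.49 to 3.88 FPKM there and at 1.74 to 3.56 in WT, so its RNA does not check that label. WWC2, an adaptor of LATS kinases, rose by 0.83 there and by 0.40 in RAP2A/B/C-tKO. LATS2 rose by 0.49 in RAP2A/B/C-tKO and fell by 0.83 in YAP/TAZ-dKO, and NF2, the Merlin tumour suppressor, fell by 0.33 in YAP/TAZ-dKO. For stiffness 1 of these 24 rose in RAP2A/B/C-tKO (WWC2, 0.51), 1 fell in LATS1/2-dKO (MINK1, -0.46), and 0 were called in WT and YAP/TAZ-dKO. In WT 1 rose without both GC-skewed libraries, and 1 fell beside the 1 that rose in RAP2A/B/C-tKO. In LATS1/2-dKO 0 rose and 1 fell, and in YAP/TAZ-dKO 1 rose and 1 fell. For stiffness that fit called 6.42% of all genes in WT, 5.05% in RAP2A/B/C-tKO, 3.04% in LATS1/2-dKO and 2.46% in YAP/TAZ-dKO.

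Of 18 genes whose proteins bind YAP and TAZ or serve their turnover, 5 rose and 2 fell in RAP2A/B/C-tKO, 8 rose and 2 fell in LATS1/2-dKO, and 3 rose and 11 fell in YAP/TAZ-dKO (medians 0.09, 0.10 and -0.22). These counts were, without both GC-skewed libraries, 6 and 5, 9 and 3, and 5 and 11 (27.8%, 42.7% and 61.6% of all genes called). The angiomotin AMOTL2 and the LIM protein AJUBA changed most of those named: AJUBA rose by 1.29 and 2.54 and fell by 0.88 in the 3 lines. AMOTL2 rose by 1.65 and 2.05 and fell by 2.64. YWHAG, a 14-3-3 protein, fell by 0.44 in YAP/TAZ-dKO. With stiffness AJUBA and AMOTL2 rose in WT (1.08 and 1.39), AJUBA and YWHAH in RAP2A/B/C-tKO (0.73 and 0.33), and 0 of the 18 were called in the other lines. In WT 3 rose without both GC-skewed libraries, and 3 in RAP2A/B/C-tKO (6.42% and 5.05% of all genes called in either direction).

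Of 20 tested target genes of YAP, TAZ and TEAD, 14 rose and 0 fell in RAP2A/B/C-tKO, 15 rose and 1 fell in LATS1/2-dKO, and 3 rose and 13 fell in YAP/TAZ-dKO (medians 0.31, 0.62 and -0.44). AMOTL2, PTPN14 and LATS2 stand on 2 lists each. With stiffness 4 rose in WT, 4 rose and 1 fell in RAP2A/B/C-tKO, 1 rose in LATS1/2-dKO and 0 were called in YAP/TAZ-dKO. Without both GC-skewed libraries 5 rose in WT and 3 in LATS1/2-dKO, where 6.42% and 3.04% of all genes were called in either direction. CYR61 and ANKRD1, like CTGF, rose in RAP2A/B/C-tKO (1.69 and 2.27) and LATS1/2-dKO (2.56 and 3.85) and fell in YAP/TAZ-dKO (-1.98 and -1.53). CTGF, a secreted protein, changed by 1.86, 2.53 and -3.44 against WT in RAP2A/B/C-tKO, then LATS1/2-dKO and YAP/TAZ-dKO, where TEAD1 changed by 0.27, 0.77 and -0.72. On the log2(FPKM + 1) scale the TEAD changes were thus smaller than those of CTGF in the same libraries.

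Across the 24 libraries TEAD1 and TEAD4 had a Pearson correlation of 0.89 on the log2(FPKM + 1) scale, TEAD1 and TEAD2 of -0.86, TEAD2 and TEAD4 of -0.84, and TEAD3 and TEAD4 of 0.03. These points share 4 genotypes and are described without a test. The genes most like TEAD1 were the actin-binding LASP1 (0.99), the receptor GPRC5A (0.983) and the VEGF receptor FLT1 (0.979), among 13273 genes compared. Among those most like TEAD4 were TMEM130 (0.954) and the peptide hormone ADM (0.944). For TEAD2 they were IFITM1 (0.92), MZF1 and SNN, for TEAD3 MTSS1L (0.861), SLC39A1 and ZNF653, for YAP1 DMKN (0.994), PYGL and IGFBP7, and for WWTR1 ACAD11 (0.977), ATP9A and PYGL.

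The TEAD motif GGAATG, searched on both strands (CATTCC on the other), occurred in 1 of 12 RefSeq promoter windows (GRCh38.p14, 250 bases before to 50 after the start) of 6 of the genes. Of all 35116 windows 14.0% held it. The match is in the window of YAP1, 162 bases before the start, and TEAD1 and TEAD4 were not searched. A match describes the letters and is no evidence of binding.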

How the data were processed

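The authors deposited 1 table of gene FPKM values per library, made with STAR 2.4.2a and Cufflinks 2.2.1 on hg19, per the submitters' processing notes. Libraries were made with a stranded mRNA kit in index sets A and B, per the labels' protocols. Which library got which set, the annotation release and the handling of reads with several matches were not given in the sources used here. Symbols on several entries (338) were summed, and 92 symbols with a failed status were left out. All 37 mitochondrial entries were at 0.

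Values were tested as log2(FPKM + 1), with no further scaling, for 15828 genes that reached an FPKM of 1 in 3 libraries or more. limma 3.58.1 (R 4.3.3) was fitted to all 24 libraries with 1 mean per group and a trend of the spread (16 residual degrees of freedom), and was tested on simulated data. Tests were two-sided and adjusted within a contrast. The contrasts were 4 of stiffness, 3 of genotype as the mean over both stiffnesses, 3 interactions, and genotype at each stiffness. Depth came from the deposited interval widths of 266 to 318 genes per library and is an estimate. Alternatives were another pseudocount, filter, scaling, robust or grouped fit, a replicate block, libraries left out and, added after seeing the data, a GC correction.

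All 8 genes are named. Of each list up to 3 called genes with the smallest p per contrast were named, and for likeness the 3 genes with the largest r, of which 1 is not reported here. The genes and lists were chosen with earlier results of these data known.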

Additional observations from a re-analysis of the deposited data

How the results depend on the processing

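Over 80 values (8 genes in 10 comparisons), 1475 alternative values were computed, of which 1385 kept their direction and their side of the threshold, 5 lost a call, 22 gained one and 63 changed sign. None of the 63 was called with either setting. The counts of genes called for stiffness moved most. Without both GC-skewed libraries they were 2 in WT, 3 in RAP2A/B/C-tKO, 1 in LATS1/2-dKO and 1 in YAP/TAZ-dKO (6.42%, 5.05%, 3.04% and 2.46% of all genes). After GC correction they were 1 (TEAD4), 2 (TEAD1 and TEAD4), 1 (TEAD4) and 0, against 0, 1, 0 and 0. For GC correction, only the groups compared and 1 library left out, the share of all genes called is not given here. The counts under those settings therefore cannot be set against it. The count for RAP2A/B/C-tKO was 0 with only the groups compared and 1 to 2 when 1 library was left out, VGLL4 being called without RAP2A/B/C-tKO 40kPa replicate 1. For the response in YAP/TAZ-dKO against that in WT the count was 1 (TEAD4) with only the groups compared, without both skewed libraries and with GC correction, against 0. The counts against WT stayed within 1.5 times in all alternatives, at 3, 3 to 5 and 6 when 1 library was left out. The replicate numbers do not pair the libraries (84 same-numbered pairs, r from -0.247 to 0.149, 3 of them over 0.1; 7 of 24 libraries correlated best with their own number). A replicate block changed 1 call, VGLL3 in LATS1/2-dKO (adjusted p = 0.0410 by limma). WWTR1 in LATS1/2-dKO was called in 4 of 21 alternatives, among them GC correction.

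Values that changed sign are log2 differences. For stiffness, without both skewed libraries YAP1 in RAP2A/B/C-tKO was -0.059 and VGLL4 in LATS1/2-dKO 0.0089, and with GC correction WWTR1 in WT was 0.0012, YAP1 in RAP2A/B/C-tKO -0.0038 and TEAD3 in RAP2A/B/C-tKO 0.0203. Against WT, VGLL4 in RAP2A/B/C-tKO was 0.017 without both skewed libraries and VGLL3 in YAP/TAZ-dKO 0.052 with GC correction. For the response in RAP2A/B/C-tKO against that in WT, TEAD2 was 0.026 with GC correction and VGLL3 0.14 with a pseudocount of 0.1 and 0.0065 without both skewed libraries. For that in LATS1/2-dKO, without both skewed libraries YAP1, TEAD2 and VGLL4 were -0.0034, 0.043 and 0.091, and with GC correction YAP1 and TEAD2 were -0.0021 and 0.0065. For that in YAP/TAZ-dKO VGLL3 was -0.015 with scaling and -0.074 with GC correction.

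Leaving out 1 library, the stiffness difference ranged from -0.14 to 0.0081 (WWTR1 in WT), from -0.059 to 0.057, from -0.014 to 0.22 and from -0.099 to 0.27 (YAP1, WWTR1 and VGLL3 in RAP2A/B/C-tKO), from -0.45 to 0.0089 (VGLL4 in LATS1/2-dKO), and from -0.035 to 0.096 and from -0.041 to 0.029 (YAP1 and TEAD1 in YAP/TAZ-dKO). Against WT it ranged from -0.059 to 0.16 and from -0.22 to 0.017 (VGLL3 and VGLL4 in RAP2A/B/C-tKO), from -0.11 to 0.12 (VGLL4 in LATS1/2-dKO) and from -0.13 to 0.052 (VGLL3 in YAP/TAZ-dKO). For the response against that in WT it ranged from -0.091 to 0.025 and from -0.23 to 0.14 (YAP1 and VGLL3, RAP2A/B/C-tKO), from -0.0034 to 0.11, from -0.12 to 0.043 and from -0.37 to 0.091 (YAP1, TEAD2 and VGLL4, LATS1/2-dKO), and from -0.067 to 0.064 and from -0.21 to 0.15 (YAP1 and VGLL3, YAP/TAZ-dKO). The cause of the changes was not tested. The 8 to 28 fragments behind VGLL3 limit its precision, and under a filter on a mean FPKM of at least 2 it was not tested.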
